A study of Mus musculus with 2 samples.

Results

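Mitochondrial ribosomal protein genes build the ribosome that works inside mitochondria, and their transcripts were compared between mouse embryonic fibroblasts with and without Dnmt1. Members were all array probes whose gene symbol was Mrpl or Mrps followed by a number and at most 1 letter. The rule uses names only and no measured value. It took 110 of 25697 probes, for 76 of 16593 genes, 47 named Mrpl for the large subunit and 29 named Mrps for the small subunit. A few proteins of the same ribosome carry other names, such as Dap3, and are described separately below.

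The control group was a line of embryonic fibroblasts of C57BL background with the genotype p53-/-, and the other group had the genotype Dnmt1-/- (p53-/-) on the same background. Dnmt1 copies DNA methylation onto new DNA strands, and p53 (Trp53) restrains growth after DNA damage. Both groups therefore lacked p53, and both were grown in serum-containing medium before total RNA was hybridised to 1-colour Illumina bead arrays. Whether each line was 1 clone or a pool of embryos, and the age of the embryos, is not stated in the labels. Each group had 1 array, so no test was possible, no p-value accompanies the differences, and every fold is a difference between 2 deposited values. Their detection p-values were all multiples of 1 in 3192, within a tolerance of 0.02 of a step. A deposited value may be an average of several measurements, which the labels do not state and whose spread is not known. These steps alone do not show it, as the number of negative control probes is not given. Each set of deposited values is called an array here. In such bulk RNA, fewer cells with a transcript and less of it per cell cannot be told apart.

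On these arrays the Dnmt1 probe gave a signal of 1715 units in the control and 439.02 units in the Dnmt1-null line. After background correction and normalization this was a difference of -2.18 log2, 4.54-fold lower, while the probe was still detected on both arrays. Where that probe lies beside the disrupted exons is unknown here, so it checks the label only in part, and Trp53 had 0 probes under its name. The median probe signal was 150.5 units in the control and 129.8 units in the Dnmt1-null line, and 40.1% and 39.1% of probes had a detection p-value under 0.01, the limit used here for detection. Of 10 fibroblast markers on the array 8 were detected on both arrays and all 8 lay within 2-fold, with Vim at -0.03 log2 and Col1a1 at -0.51 log2. Furthest from 0 among these 8 were Col3a1 at -0.94, Pdgfra at -0.83 and Pdgfrb at 0.70 log2. Lum and Postn, also on that list, were not detected on either array. Of 8 skeletal muscle markers 3 were detected in the control and 6 in the Dnmt1-null line, and 6 were higher by 2-fold or more. Their summed level went from 9.75 to 12.20 log2, while Des and Ckm were not detected. Of 6 epithelial markers, 0 were detected in the control and 3 in the Dnmt1-null line, with a summed level of 7.81 and 9.86 log2 and Cdh1 not detected. Of 5 neural markers 2 were detected in the control, and both were lower by 2-fold or more by measured values, Map2 at -1.60 log2 and Gap43 at -1.71 log2, the latter not detected in the Dnmt1-null line. Their summed level was 9.35 and 8.198 log2. Of 3 haematopoietic markers 1 was detected, Cd14, 2.23-fold higher, with a summed level of 7.27 and 8.17 log2 and Ptprc not detected. Of 4 endothelial markers 0 were detected. The part of these other markers in the differences below was not tested.

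Mitochondria carry a small genome of their own that encodes a few core subunits of the respiratory chain, and these are made on a dedicated ribosome. The proteins of that ribosome are all encoded in the nucleus, made in the cytosol and imported. The mitochondrial ribosome descends from a bacterial one, so many of its proteins have bacterial counterparts, while others were gained in the mitochondrial lineage. Growing fibroblasts need it to keep up their respiratory chain, and inherited defects in several members cause mitochondrial disease in humans.

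Transcripts of the mitochondrial ribosome were at nearly equal levels in both lines. Of the 76 member genes 70 (92.1%) were detected, all 70 of them on both arrays, against 46.6% of all genes on at least 1 array. The signals of these 70 ran from 208 to 6737 units in the control, with a median of 1959, and from 189.5 to 8238 units in the Dnmt1-null line, with a median of 1887. The median difference was -0.0085 log2, beside -0.032 log2 over the 6850 genes detected on both arrays. The middle 50% of members lay between -0.14 and 0.11 log2, and the full range was -0.57 to 0.68 log2. Whether the members' median lies above or below 0 depended on the scaling, with 0.0091 log2 under cyclic loess, 0.023 log2 after re-centring on the median of genes detected on both arrays and -0.056 log2 under median scaling.

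No member differed by 2-fold or more, a size reached in the higher direction by 4.50% and in the lower direction by 3.71% of genes detected on at least 1 array (2.88% and 2.60% of genes detected on both). At 1.5-fold (0.58 log2) 1 member of 70 was higher and 0 were lower. The background was 9.20% higher and 9.29% lower among genes detected on at least 1 array, and 7.01% and 7.75% among genes detected on both. Below 0 lay 36 of the 70 members (51.4%), near the 53.7% of genes detected on both arrays. This balance moved with the scaling, with 45 members below 0 under median scaling, 43 with the authors' processed values, 34 under cyclic loess and 30 after re-centring. Within 0.25 log2 of 0 lay 54 members (77.1%), beside 53.2% of genes detected on both arrays.

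The spread among members was narrow beside that of other genes. Their robust SD (from the median absolute deviation) was 0.18 log2, beside 0.34 log2 over genes detected on both arrays. Bright genes scatter less on such arrays, so each member was also set beside the robust SD of the 500 detected genes nearest to it in mean level, called the scatter here. That scatter ran from 0.23 to 0.49 log2 over the members, with a median of 0.33 log2. More than 1 scatter from 0 lay 12 of 70 members (17.1%), beside 31.5% of genes detected on both arrays, and more than 2 scatters lay 1 member, beside 9.87%. The scatter describes genes of these arrays and is no replicate error.

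**Figure D1:**
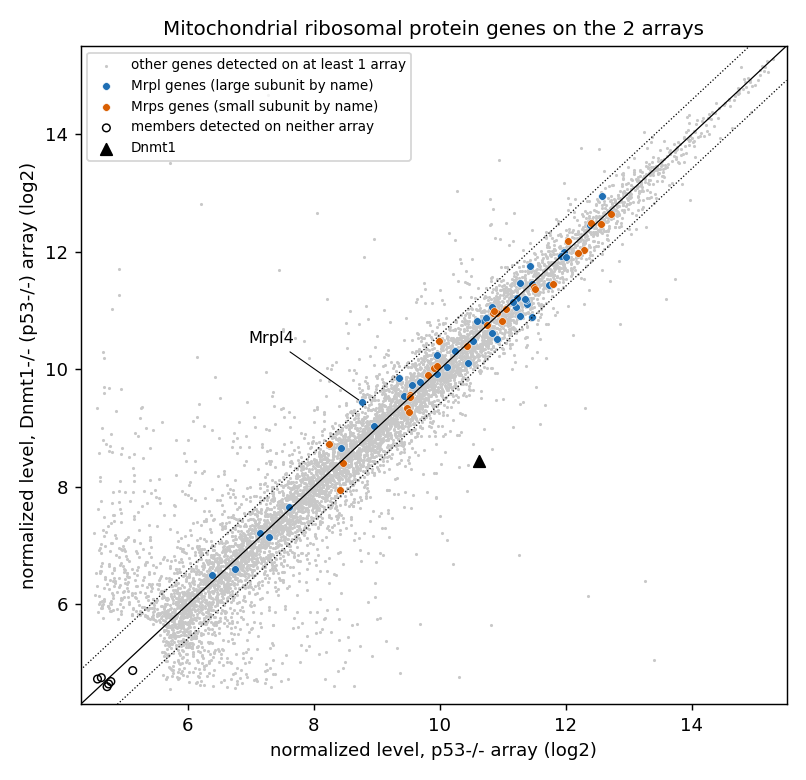
Normalized level (log2) of each gene on the p53-/- array (x) and on the Dnmt1-/- (p53-/-) array (y). Grey points are genes detected on at least 1 array, blue points Mrpl and orange points Mrps genes, open circles the 6 members detected on neither array, and the triangle is Dnmt1. The solid line marks equal levels and the dotted lines 1.5-fold, and the members follow the solid line while Dnmt1 lies 2.18 log2 below it.

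Among the large subunit genes with a bacterial counterpart, Mrpl4 differed most. Mrpl4 belongs to the family of bacterial L4, whose members line the tunnel through which the new protein leaves. Its single probe gave 567 units in the control and 782.8 units in the Dnmt1-null line, or 8.76 and 9.44 log2 after normalization. It was thus 1.61-fold higher in the Dnmt1-null line (0.68 log2), 2.05 times the scatter of 0.33 log2 among genes of its level. It fell below 1.5-fold without background correction (0.57 log2) and under median scaling (0.58 log2). Other genes of the tunnel did not share its direction or differed little. Mrpl22, of the family that meets L4 in the tunnel wall, gave 2495 and 2215 units (-0.16 log2). Mrpl23, whose bacterial counterpart sits at the tunnel exit, gave 2061 units in the control and 1552 in the Dnmt1-null line, 1.32-fold lower (-0.40 log2). Mrpl24, also at the exit in bacteria, gave 1245 and 1134 units (-0.08 log2). Mrpl47, the counterpart of bacterial L29, gave 1353 and 1350 units (0.06 log2).

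The stalk that recruits translation factors showed small differences in both directions. Mrpl12, the counterpart of the L7/L12 stalk protein, gave 4059 and 4280 units (0.02 log2). Mrpl10, which anchors it, gave 3471 units in the control and 2909 units in the Dnmt1-null line, a difference of -0.30 log2, and its other probe gave -0.29 log2. Mrpl11, at the base of the stalk, gave 1123 and 1289 units (0.29 log2). Mrpl10 was thus lower by both of its probes and Mrpl11 higher, each by less than 1 scatter.

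Mrpl2 and Mrpl3, of the families next to the peptidyl transferase centre, differed by 0.13 and 0.15 log2, and the other probe of Mrpl3 by 0.37 log2. Mrpl16 differed by 0.12 log2 and Mrpl27, whose bacterial counterpart reaches into the active site, by 0.22 log2, with 1679 and 1880 units. Mrpl33, a small counterpart of bacterial L33, gave 6070 units in the control and 8238 units in the Dnmt1-null line, 1.31-fold higher (0.38 log2). Its other probe gave 0.46 log2. Mrpl36 gave 2730 and 2307 units (-0.26 log2) and Mrpl9 1533 and 1189 units (-0.35 log2). The remaining detected large subunit members with a bacterial counterpart lay between -0.13 (Mrpl15) and 0.18 log2 (Mrpl14). Together the 27 detected members of this kind had a median of 0.040 log2, with 16 above and 11 below 0.

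Large subunit proteins without a bacterial counterpart included both the lowest member and the next highest. Mrpl38, a protein of the central protuberance at the top of the large subunit, gave 2882 units in the control and 1969 units in the Dnmt1-null line. This was 1.49-fold lower (-0.57 log2), or -1.74 in units of the scatter. Mrpl48, of the same protuberance, had 5 probes, of which 3 were detected and 2 were not. The probe used gave 786.8 and 1005 units, 1.42-fold higher (0.50 log2), and the detected probes lay close together, at 0.46, 0.50 and 0.50 log2. Mrpl40, another protein of the protuberance, gave 1955 and 2235 units (0.24 log2), while Mrpl46 gave 1127 and 1050 units (-0.05 log2) and Mrpl18, a counterpart of bacterial L18 there, 893.8 and 937.7 units (0.17 log2). Values in the protuberance thus lay on both sides of 0.

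Further mitochondrial members of the large subunit were Mrpl50, with 2596 and 2000 units (-0.37 log2), and Mrpl52, with 2824 and 3606 units (0.33 log2). Mrpl58, which releases peptides from stalled ribosomes, gave 477.4 and 492.8 units (0.23 log2). Mrpl37, Mrpl49 and Mrpl42 lay at -0.19, -0.21 and -0.14 log2, and Mrpl53, Mrpl43 and Mrpl54 at -0.02, -0.02 and -0.09 log2. Mrps30 is named after the small subunit, although structures place its protein in the large one, and it gave 3618 and 2944 units (-0.35 log2). The 16 detected Mrpl members of this kind had a median of -0.032 log2, with 6 above and 10 below 0.

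The small subunit reads the messenger RNA, and 0 of the 27 detected genes named Mrps, Mrps30 included, reached 1.5-fold. With the authors' values and under median scaling Mrps27 did. Mrps12, the counterpart of the decoding protein S12, gave 2982 and 2850 units (-0.10 log2). Mrps5 gave 874 and 819.9 units (-0.01 log2), Mrps2 484.7 and 429.8 units (-0.06 log2), Mrps9 1129 and 1149 units (0.10 log2) and Mrps10 1043 and 1040 units (0.08 log2). These members of the bacterial core differed by 0.10 log2 or less. Mrps7, which organises the head of the small subunit in bacteria, gave 4717 and 4244 units (-0.20 log2), and its other probe -0.18 log2. Mrps17 and Mrps15 differed by -0.25 and -0.24 log2.

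Mrps28 and Mrps25 were the highest small subunit members. Mrps28, needed in humans for a stable small subunit, gave 1144 units in the control and 1519 in the Dnmt1-null line, 1.41-fold higher (0.50 log2). Mrps25 gave 430.1 and 515 units by the probe used (0.50 log2), but only 0.12 and 0.24 log2 by its other probes, the widest disagreement among the members. Mrps27, a protein with pentatricopeptide repeats, was the lowest and gave 475.2 and 339.5 units, 1.39-fold lower (-0.48 log2). It passed 1.5-fold with the authors' processed values (-0.63 log2) and under median scaling (-0.60 log2), as did Mrpl38 (-0.60 log2 in both). Mrps22 and Mrps16, both mutated in inherited mitochondrial disease in humans, differed by -0.04 and 0.12 log2, and Mrps34 by -0.02 log2.

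The paralogs Mrps18a, Mrps18b and Mrps18c descend from 1 bacterial protein family. Mrps18a gave 1876 and 1806 units (0.01 log2). Mrps18b gave 4203 and 4813 units (0.16 log2), with 0.27 log2 by its other probe, and Mrps18c gave 2989 and 2801 units (-0.13 log2). The paralogs thus stayed within 0.16 log2 by the probes used. Over the whole list, the 47 Mrpl and 29 Mrps genes had medians of 0.0041 log2 (43 detected) and -0.020 log2 (27 detected), both near 0. The 44 detected members with a bacterial counterpart had a median of 0.013 log2 and the 26 without one -0.028 log2. The signs of the Mrpl and bacterial medians turned under median scaling (-0.042 and -0.030 log2) and with the authors' values (-0.043 and -0.027 log2). After re-centring the Mrps median was 0.012 log2 and that of the members without a bacterial counterpart 0.0043 log2.

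**Figure D2:**
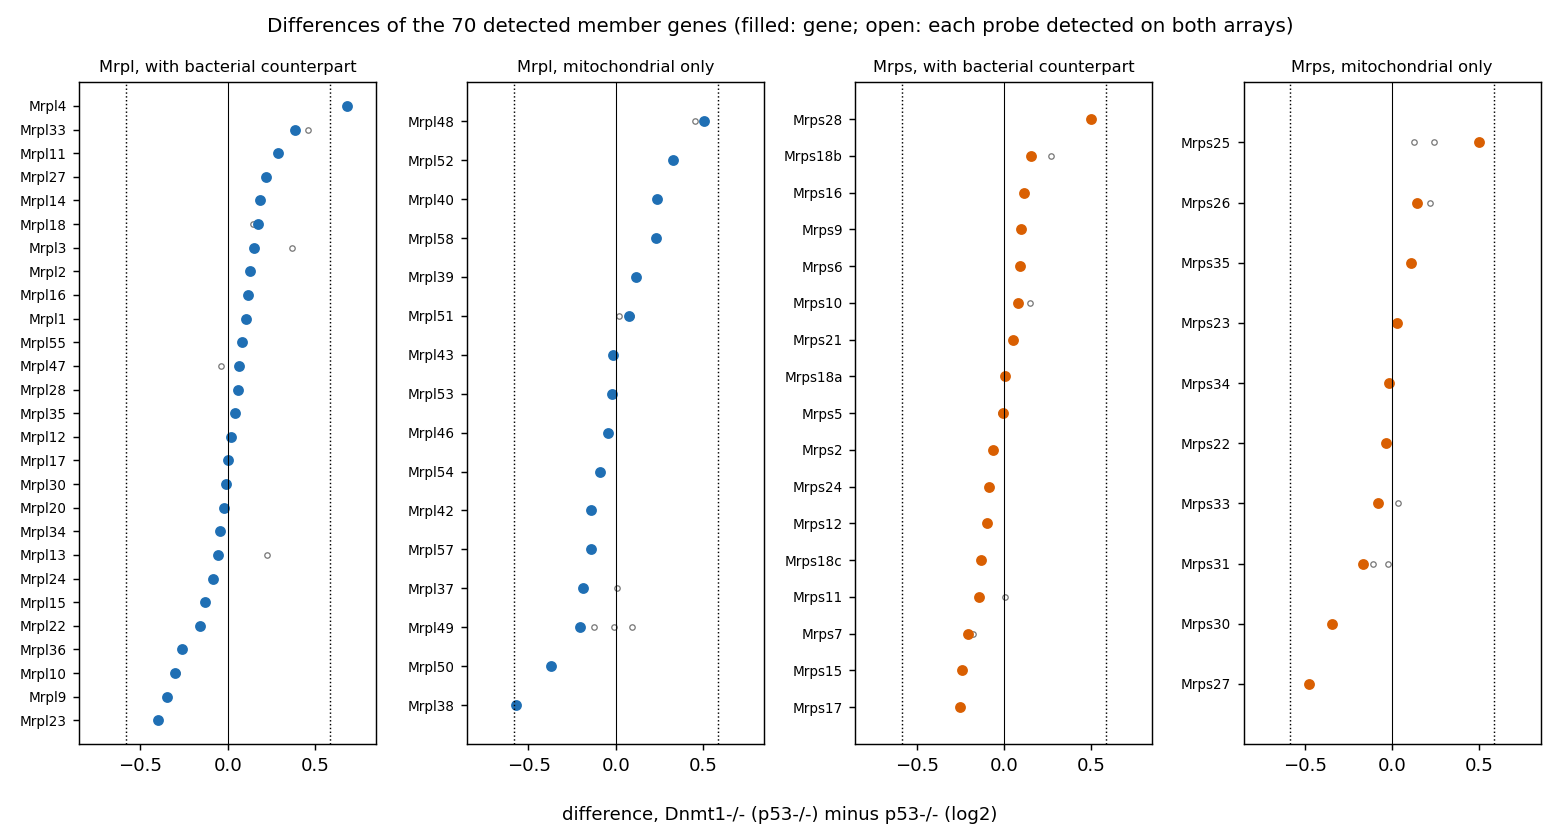
Difference (log2, Dnmt1-/- (p53-/-) minus p53-/-) of each of the 70 detected member genes, in 4 panels by subunit name and by whether the protein has a bacterial counterpart. Filled points are the probe used for the gene, open points its other probes detected on both arrays, and dotted lines mark 1.5-fold, which Mrpl4 alone passes here. Under median scaling and with the authors' values Mrpl38 and Mrps27 pass it too, and under median scaling Mrpl4 does not.

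Detected on neither array were 6 members, each by the probe or probes present, and nothing can be said of their difference. They were Mrpl19, Mrpl21, Mrpl32, Mrpl45, Mrps14 and Mrps36. Their signals lay between 126.3 and 153.4 units in the control and between 107.3 and 122.8 units in the Dnmt1-null line, with detection p-values of 0.071 or more and 0.35 or more. Mrpl45 had 2 probes and the others 1 each. Most of these encode core parts of the ribosome, for example Mrpl45, which binds it to the inner membrane, and Mrpl32, which the m-AAA protease matures. Mrps36 is by later work a subunit of the 2-oxoglutarate dehydrogenase complex. A reading at background shows only that these probes gave no signal above background.

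Several members had more than 1 probe. For 20 members 2 or more probes were detected on both arrays, 46 probes in all. The range between the probes of a gene had a median of 0.088 log2 and a maximum of 0.37 log2 (Mrps25), beside a median of 0.14 log2 over all 1655 such genes. In 14 of the 20 all probes had the same sign. Probes of a gene were read on the same 2 arrays, so they bear on the error of the array and not on that between cultures.

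Other genes of mitochondrial translation were read from related lists, whose medians shifted with the scaling. Under median scaling the median was -0.17 log2 for assembly genes, -0.075 log2 for translation factors, -0.17 log2 for tRNA charging and -0.15 log2 for mitochondrial DNA genes, when that of all detected genes was -0.11 log2. The values below are from the main scaling. Of 4 mitoribosome genes under other names 3 were detected, Dap3, a GTP-binding small subunit protein (-0.13 log2), Ptcd3 (-0.05 log2) and Chchd1 (-0.08 log2), and 0 passed 1.5-fold. Of 22 assembly genes 18 were detected, with a median of -0.033 log2, 0 higher and 1 lower by 1.5-fold. This was Ybey, an RNA-processing enzyme of the family of a bacterial endoribonuclease, with 216.2 and 157.5 units (-0.68 log2). Noa1, a GTPase, was at 0.52 log2, Mrm1, an rRNA methyltransferase, at 0.37 log2 and Mterf4 at -0.32 log2. Of 14 translation factors 11 were detected, with a median of 0.036 log2 and 0 past 1.5-fold. The recycling factor Gfm2 was the furthest at -0.55 log2, and the elongation factors Tufm and Gfm1 lay at -0.27 and -0.22 log2 and Tsfm at 0.19 log2.

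Of 19 genes for mitochondrial tRNA charging 15 were detected, with a median of -0.092 log2, and 0 passed 1.5-fold higher and 2 lower by measured values. Wars2 gave 209.3 and 154.4 units (-0.63 log2), and Pars2 gave 222.1 and 158.1 units (-0.75 log2), at least 1.68-fold lower, since the Dnmt1-null array did not detect it. A bound here sets the undetected side at its own level or the lowest detected level of that array, whichever is higher. Vars2 and Mars2 lay at 0.42 and 0.40 log2. Of 18 genes for expression and upkeep of mitochondrial DNA 16 were detected, with a median of -0.050 log2, 0 higher and 2 lower by 1.5-fold. Ppargc1b, a coactivator of mitochondrial gene programmes, gave 301 and 170.8 units, 2.41-fold lower (-1.27 log2), the only gene of these pathway lists past 2-fold. Polg2, a subunit of the mitochondrial DNA polymerase, gave 296.1 and 206.7 units (-0.63 log2) and its partner Polg 211.2 and 215.7 units (0.44 log2). Nrf1, Gabpa and Tfam, transcription factors of nuclear and mitochondrial genes, were at -0.03, -0.01 and -0.02 log2. Esrra lay at 0.39 log2 and Ssbp1 at 0.37 log2.

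The cytosolic ribosome and the respiratory chain were read for comparison. Of 57 cytosolic ribosomal protein genes 52 were detected, with a median of -0.0030 log2 and 1 robust SD equal to 0.082 log2, and 1 passed 1.5-fold (Rpl22, -0.69 log2). Of 69 oxidative phosphorylation genes 65 were detected, with a median of -0.052 log2 and 1 robust SD equal to 0.176 log2, and 1 passed 1.5-fold (Ndufb4, 0.65 log2). The members' robust SD was 0.184 log2, beside 0.176 log2 for the respiratory chain genes. No test of these differences was possible.

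**Figure D3:**
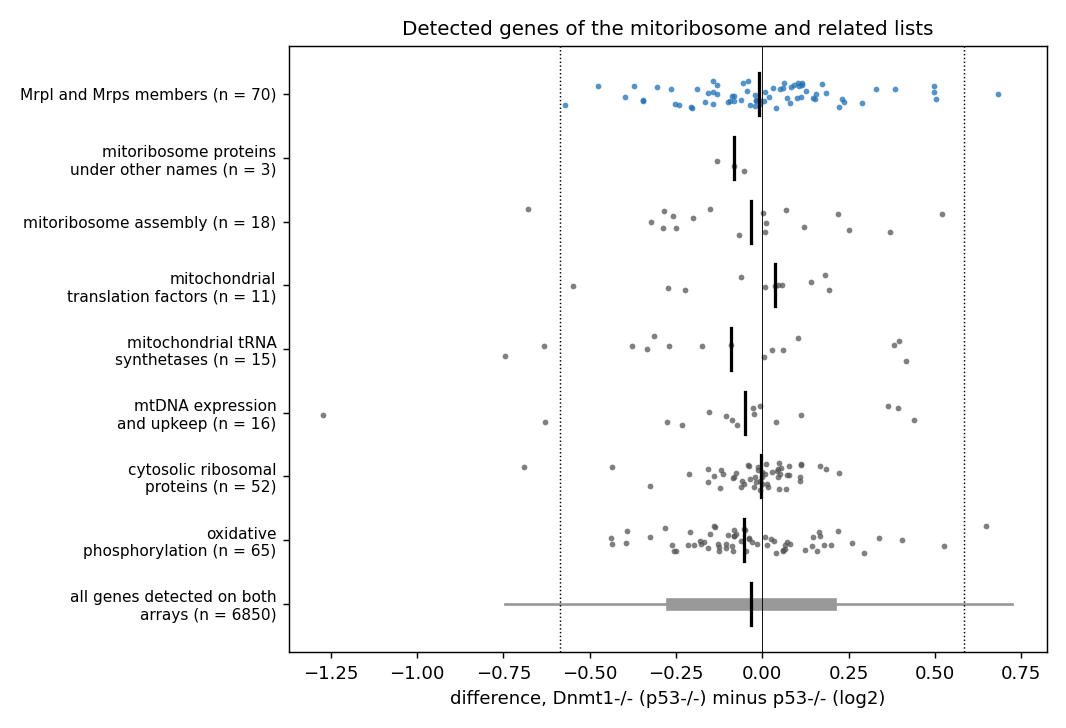
Differences (log2, Dnmt1-/- (p53-/-) minus p53-/-) of the detected genes of each list, 1 point per gene, with the list median as a black bar and 1.5-fold as dotted lines. The grey bar and line are the middle 50% and 90% of the 6850 genes detected on both arrays, and the members, in blue, stay between -0.57 and 0.68 log2.

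Promoter sequence is described here because Dnmt1 maintains methylation at CpG sites. Whether CpG content has a part in the differences was not tested. RefSeq promoter windows of the build GRCm38.p6, from 250 bases before to 50 bases after the start, were matched for 67 of the 76 members, in 73 windows. Mrpl13, Mrpl15, Mrpl19, Mrpl38, Mrpl4, Mrpl54, Mrps28, Mrps34 and Mrps35 had no entry. The members' windows held a median of 21 CpG sites in 300 bases, and the ratio of observed to expected CpG had a median of 0.82. A ratio of 0.6 or more, often used to define CpG islands, was found in 67 windows (91.8%), beside 47.7% of the 21263 windows of all protein-coding genes and 72.2% of the windows of detected genes. In cytosolic ribosomal protein genes the share was 89.5% and in oxidative phosphorylation genes 85.7%. Genes higher by at least 2-fold and not detected in the control had 133 windows with a median ratio of 0.33, and 23.3% of them reached 0.6. Genes detected on neither array were close to these, with a median of 0.35 and 31.3% at 0.6 or more. Genes lower by at least 2-fold had a median of 0.63, with 53.6% at 0.6 or more. Methylation itself was not measured here.

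**Figure D4:**
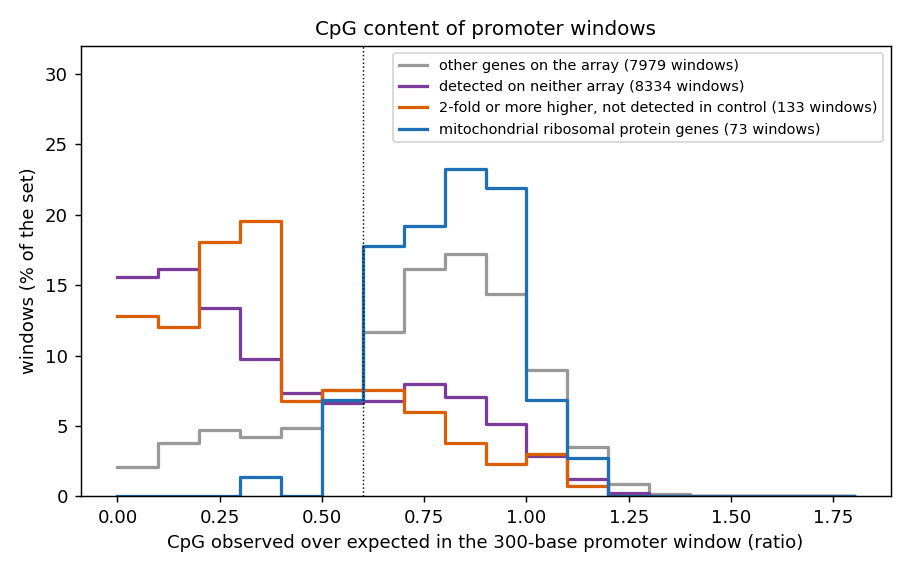
Ratio of observed to expected CpG in the 300-base promoter window (x) against the share of windows of each set in percent (y), in steps of 0.1. The blue line (73 windows of mitochondrial ribosomal protein genes) lies mostly right of the dotted line at 0.6, as does the grey line (other genes on the array). The orange line (133 windows of genes at least 2-fold higher and not detected in the control) and the purple line (genes detected on neither array) both lie mostly left of it.

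Many members share their promoter region with a neighbour. Of the 67 members with a window, 23 (34.3%) had another gene starting on the opposite strand within 1000 bases, pointing away, beside 1483 of 17492 protein-coding genes (8.48%). The share among detected genes, cytosolic ribosomal protein genes or oxidative phosphorylation genes is not given here. Whether such pairs are particular to the members was therefore not tested. Mrpl46 and Mrps11 are both members and start 42 bases apart, so they count in both directions. Several partners also serve mitochondria, such as Sars2, the mitochondrial seryl-tRNA synthetase, and Twnk, the helicase of mitochondrial DNA. Ptcd2, the partner of Mrps27, is another protein with pentatricopeptide repeats. The bases between the 2 starts are shown for these pairs, on the strand of the first gene and from RefSeq (GRCm38.p6), to show how short and how rich in CpG a shared promoter can be. Read on that strand, each line begins beside the start of the second gene named and ends beside the start of the first. Capitals mark CCGGAAG or its reverse complement, letters bound by ETS-family factors.
Mrpl46 to Mrps11, chr7:78783090-78783130 (- strand): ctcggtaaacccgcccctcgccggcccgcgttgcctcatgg
Mrps27 to Ptcd2, chr13:99344679-99344785 (+ strand): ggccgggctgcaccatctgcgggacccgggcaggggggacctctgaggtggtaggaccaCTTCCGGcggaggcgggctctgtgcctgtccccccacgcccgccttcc
Mrpl43 to Twnk, chr19:45006443-45006557 (- strand): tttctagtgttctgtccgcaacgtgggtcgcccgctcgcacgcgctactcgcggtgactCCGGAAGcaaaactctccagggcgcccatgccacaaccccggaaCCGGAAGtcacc
Mrps12 to Sars2, chr7:28741822-28741967 (- strand): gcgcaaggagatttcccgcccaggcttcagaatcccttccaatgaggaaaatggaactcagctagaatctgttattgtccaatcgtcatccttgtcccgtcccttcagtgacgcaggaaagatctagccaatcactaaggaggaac

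The stretch between Mrpl46 and Mrps11 held 6 CpG sites in 41 bases, that between Mrpl43 and Twnk 13 in 115 bases, and that between Mrps12 and Sars2 only 5 in 146 bases. Mrpl46 and Mrps11 lay at -0.05 and -0.14 log2, Mrps11 with 848.8 units in the control and 732.1 units in the Dnmt1-null line. Mrps12 lay at -0.10 log2 and Sars2 at -0.17 log2. Mrpl43 lay at -0.02 log2, while Twnk was detected in the control only, with a measured difference of -0.28 log2. In 16 of the 23 pairs both genes were detected on at least 1 array, and 12 of these had the same sign by measured values. These 12 include the pairs with Twnk and Zfp661, which the Dnmt1-null array did not detect. The same share over other such pairs of the genome is not given here. Across the 16 pairs, which read the same 2 arrays and hold the Mrpl46 and Mrps11 pair in both orders, Pearson's r was 0.180 and Spearman's rho 0.329, given as a description. Past 1.5-fold lay 1 partner, Zfp661 beside Mrps5, with a measured difference of -0.95 log2 and, as the Dnmt1-null array did not detect it, at least 1.71-fold lower.

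The factors NRF1, the ETS-family factor GABP and YY1 are textbook regulators of nuclear genes for mitochondria, and binding of NRF1 is known to be sensitive to CpG methylation. Exact letters were searched on both strands, GCATGCGC for NRF1, CCGGAAG for the ETS family and AAGATGGC for YY1. In the 73 member windows there were 57 copies in all, and 0 copies of different motifs overlapped. The NRF1 letters were in 8 windows (10.96%), beside 3.52% of all protein-coding windows and 5.64% of those of detected genes. The ETS letters were in 26 windows (35.6%), beside 11.6% and 18.4%. The YY1 letters were in 12 windows (16.4%), beside 3.05% and 4.76%. At least 1 of these motifs was in 38 windows (52.1%), beside 16.7% of all protein-coding windows and 26.2% of those of detected genes. The share was similar in cytosolic ribosomal protein genes (50.9%) and oxidative phosphorylation genes (44.4%), so it is not particular to the members. In these 2 sets the ETS letters were in 35.1% and 25.4% of windows. The NRF1 letters were in 3.51% and 14.3%, and the YY1 letters in 12.3% and 14.3%. A match describes letters and is no evidence of binding in these cells.

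Stretches of 60 bases before the start are shown for 3 of the members furthest from 0, all within 1.5-fold, with the NRF1 or ETS letters in capitals. Mrpl48 has 4 annotated starts, and the one shown, with 9 CpG sites and a ratio of 0.599 in its window, is the only one whose window holds the ETS letters.
Mrpl33, chr5:31613891-31613950 (+ strand): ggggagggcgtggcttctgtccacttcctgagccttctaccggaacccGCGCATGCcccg
Mrpl48, chr7:100583131-100583190 (- strand): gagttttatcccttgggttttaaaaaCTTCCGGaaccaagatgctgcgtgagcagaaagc
Mrpl9, chr3:94443276-94443335 (+ strand): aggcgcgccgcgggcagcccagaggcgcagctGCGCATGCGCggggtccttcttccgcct

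Mrpl33 (0.38 log2) and Mrpl9 (-0.35 log2) both carry the NRF1 letters close to the start and lay on opposite sides of 0. The 7 detected members with the NRF1 letters had a median of 0.0041 log2 and the 55 without -0.0073 log2. For the ETS letters the medians were 0.031 log2 in 25 members and -0.020 log2 in 37, and under median scaling -0.0071 and -0.098 log2. Over all genes with a window and detected on both arrays, the medians with and without the NRF1 letters were -0.041 and -0.036 log2, and with and without the ETS letters -0.026 and -0.041 log2.

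Members with the YY1 letters lay lower than the others. The 11 detected members with them had a median of -0.14 log2, from -0.48 (Mrps27) to 0.040 log2 (Mrpl35), and 9 of the 11 lay below 0. Among these 9, Mrpl37, Mrpl49 and Mrps11 also had detected probes above 0, at up to 0.0083, 0.092 and 0.0037 log2, while all detected probes of Mrps7 lay below 0. The 51 without them had a median of 0.052 log2, with 22 below 0. Over all genes with a window and detected on both arrays, the 351 with the YY1 letters had a median of -0.12 log2, with 67.2% below 0. The 5316 without them had a median of -0.031 log2, with 53.4% below 0. Among members the median with the letters was below that without them under each of the 7 other settings tried for this split. The medians with and without them were -0.091 and 0.019 log2 for the mean of all probes, and -0.18 and -0.0071 log2 under median scaling. All these settings re-process the same arrays and the same 11 and 51 genes. Their agreement therefore bears on the processing only and is no independent evidence for the split. No test of this split was possible, and the letters were chosen with values of these arrays known.

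In the members the YY1 letters on the strand of the gene lay after the start. Of the 12 copies, 8 were on the strand of the gene, and all 8 began 11 to 36 bases after the start, beside 263 of 438 such copies after the start (60.05%) in all protein-coding windows. The 30 bases around each are shown with the letters in capitals, on the strand of the gene, to show the letters that flank them in members of both subunits. Each stretch was cut around the letters, so their common place in the lines is no result.
Mrpl35, chr6:71823743-71823772 (- strand): aggcaggctgcAAGATGGCggcttccatct
Mrpl37, chr4:107066822-107066851 (- strand): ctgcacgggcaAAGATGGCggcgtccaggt
Mrpl42, chr10:95501904-95501933 (- strand): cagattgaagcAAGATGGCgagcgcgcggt
Mrpl49, chr19:6057721-6057750 (- strand): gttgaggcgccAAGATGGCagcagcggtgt
Mrps18a, chr17:46111004-46111033 (+ strand): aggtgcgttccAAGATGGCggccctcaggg
Mrps24, chr11:5707652-5707681 (- strand): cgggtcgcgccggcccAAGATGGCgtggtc
Mrps27, chr13:99344789-99344818 (+ strand): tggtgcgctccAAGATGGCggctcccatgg
Mrps7, chr11:115604147-115604176 (+ strand): tgacagcggccAAGATGGCtgcccccgcgc

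These letters hold ATG, and whether they lie at the first codon was not examined here. Among these 8 genes Mrps27 lay lowest at -0.48 log2. Mrpl49 gave 1962 and 1666 units (-0.21 log2), although its 4 probes ran from -0.21 to 0.092 log2. Mrps7, Mrpl37 and Mrpl42 lay at -0.20, -0.19 and -0.14 log2, but the other detected probe of Mrpl37 gave 0.0083 log2. Mrps24, the counterpart of bacterial S3, gave 6051 and 5936 units (-0.09 log2). Mrps18a (0.01 log2) and Mrpl35 (0.04 log2) lay just above 0. All 8 were within 1.5-fold and 7 within 0.25 log2 of 0.

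**Figure D5:**
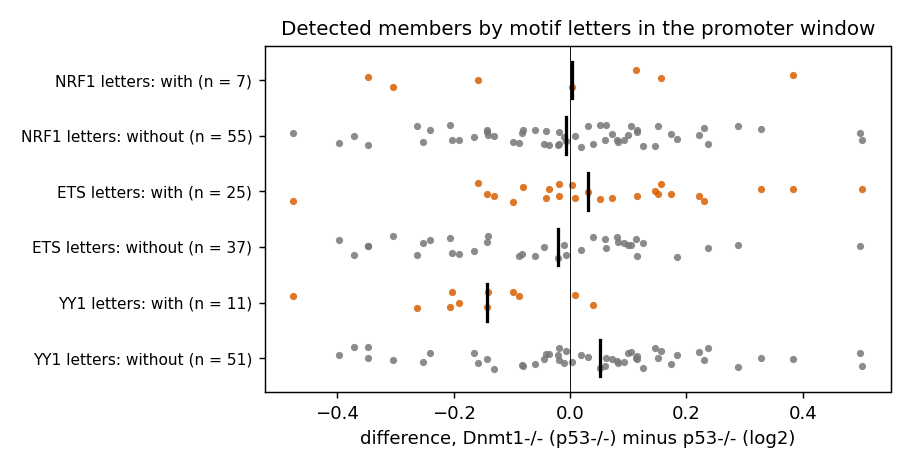
Differences (log2, Dnmt1-/- (p53-/-) minus p53-/-) of detected members with and without the NRF1, ETS or YY1 letters in their promoter windows, 1 point per gene, with the median as a black bar. Members with the YY1 letters (11 genes, median -0.14 log2) lie lower than those without (51 genes, median 0.052 log2), and for the NRF1 and ETS letters both medians lie near 0 with the scaling plotted. Under median scaling the median without the ETS letters is -0.098 log2.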

How the data were processed

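Total RNA of the control and the Dnmt1-null line was measured on bead arrays, with 1 deposited value per probe and group, and the labelled genotype set the group. The number of cultures behind each value is not stated in the labels. Each probe had a linear intensity, called non-normalized per the file headers, and a deposited detection p-value. In a further table the authors had already processed the intensity, by steps not given in the sources used here, where the scanner software is not named either. Signals were background-corrected with neqc (limma 3.58.1, R 4.3.3, offset 16), quantile-normalized and put on a log2 scale, and this computation was run on simulated data. The simulation started from the control array and changed only detected probes above a set signal. It bears on the computation and not on the error of the differences given here. Detection meant a deposited p-value below 0.01. The platform annotation gave 23978 of 25697 probes 1 symbol, 0 several and 1719 none. All 76 member Entrez IDs were found in RefSeq (GRCm38.p6) and 0 had changed symbol. A gene took its probe with the highest mean level. Differences are Dnmt1-null minus control. Background shares over genes detected on at least 1 array set an undetected side at the lowest detected level of that array (5.57 log2 in the control, 5.66 log2 in the Dnmt1-null line). Named members were the 8 furthest from 0 in each direction and the Mrps18 paralogs, and others were added to describe each structural group. The members, lists and motifs were chosen with earlier results of these data known. The number of arrays limits the precision. Promoters, pairs and motifs were handled in Python 3.11.15.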

Additional observations from a re-analysis of the deposited data

How the results depend on the processing

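Processing was varied in 9 ways: no background correction, an offset of 50, median scaling, cyclic loess, the authors' processed values with a floor of 16 units, a detection limit of 0.05, no filter, the mean of all probes, and re-centring on the median of genes detected on both arrays. Medians and differences moved by less than the median range between probes of a gene (0.14 log2), although medians near 0 changed sign, and counts stayed within 1.5 times, with these exceptions. Dnmt1 moved by more than this limit, to -1.88 log2 without background correction, beside -2.18 log2. Members below 0 ranged from 30 after re-centring to 45 under median scaling, beside 36. The count of members at least 1.5-fold higher was 0 without background correction (Mrpl4 at 0.57 log2) and 0 under median scaling (Mrpl4 at 0.58 log2). The count at least 1.5-fold lower was 2 under median scaling and 2 with the authors' values (Mrpl38 and Mrps27, the latter at -0.63 log2 with the authors' values). Over all detected genes, measured values past 1.5-fold were 10.02% higher and 10.7% lower, against 8.59% and 13.9% under median scaling and 9.62% and 15.7% with the authors' values. The median of all detected genes was -0.11 log2 under both of these, beside -0.037 log2, and that of the members -0.056 and -0.050 log2, beside -0.0085 log2. The median of the assembly genes was -0.17 log2 under both. With the authors' values that of translation factors was -0.076, of tRNA charging -0.16 and of mitochondrial DNA genes -0.14 log2. With the mean of all probes Mrpl48, which has 2 undetected probes, was at 0.29 log2 and Mrps25 at 0.29 log2. The cause of the other changes was not tested. No paired analysis was possible because each group had 1 array, and for the same reason no array could be left out. Dim probes, such as those of the 6 undetected members, give no difference.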
